A study of Mus musculus with 1753 samples.

Results

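Cluster 8 is one of the groups of single mouse skeletal muscle cells that the deposited labels define, and it was taken here exactly as labelled: the cells whose cluster label is 8, which are 14.4% of the 1753 cells in all, while 1500 cells carry another cluster label. It is a fibroblast population, and it was compared with the other endomysial fibroblasts, which are the 863 cells of clusters 1, 3, 5 and 6, and with all other fibroblasts, which are the 1313 cells of clusters 1, 2, 3, 4, 5, 6, 9 and 10. The markers given for it were the complement genes C2, C4b and C7, the metalloproteinase gene Mmp3, the growth factor gene Gdf10, the monooxygenase gene Fmo2 and the carboxypeptidase gene Cpz.

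The endomysium is the thin connective tissue sheath around each muscle fibre, and its fibroblasts produce collagens, basement membrane proteins and secreted regulators. Complement is a cascade of plasma proteins: C1 cleaves C4 and C2, their fragments form a convertase that cleaves C3, factor B serves the same step in the alternative pathway, and C5 to C9 assemble a pore in the target membrane. Most complement protein in blood comes from the liver, while fibroblasts are a known local source of several components, and cells protect themselves with regulators such as C1 inhibitor and CD55.

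All cells came from skeletal muscle of male mice aged 10 to 20 weeks, sorted as single cells into plates and read by Smart-seq2, a full-length method without molecular identifiers. The strain labels are C57BL6, which names no reporter, the reporter strains Acta2GFP, PdgfrbGFP and Cspg4dsRED, and "PdgfraGFP - PdgfrbGFP pool" (the pool below). The study states that soleus muscles of a Pdgfra H2BGFP and a Pdgfrb GFP mouse were combined before dissociation. The pool label also covers gastrocnemius cells, for which no pooling is described. A reporter selects the cells in which its promoter is active, and elastase was added for Acta2GFP muscle. By strain label, 13 cells of cluster 8 were Acta2GFP, 60 were C57BL6, 30 came from the pool, 2 were Cspg4dsRED, and the remaining cells were PdgfrbGFP. The labels name no animal, so counts were summed over the cells of a strain label, the 4 strain labels with 3 or more cells were the replicates, and the spread between them may be partly technical. Acta2GFP and C57BL6 cells of cluster 8 each came from 1 plate, so strain and plate cannot be told apart there.

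Cells of cluster 8 had 51745 to 761285 gene counts each, with a median of 277080 counts and 4694 genes, close to the medians of 276105 counts and 4540 genes in the other endomysial cells. The study removed cells without Pdgfra or Pdgfrb expression, and clusters were made from these same counts. Fibroblast genes are therefore no independent check of the fibroblast label. Dcn reached 100 or more counts per 500000 in 100% of cluster 8 cells, Col1a1 in 99.6%, Cd34 in 96.8%, Lum in 94.1% and Pdgfra in 84.2%. That level, 100 counts in a cell scaled to 500000, is called detection below, and the level in a sum of cells is given as CPM, the counts of a gene as a share of all gene counts on the usual scale. The 8 endothelial markers summed to 14.2 to 112.6 CPM per strain label in cluster 8 and 3.47 to 18.8 CPM in the other endomysial cells, and the 10 immune markers to 0.308 to 40.5 CPM and 9.79 to 27.8 CPM. Schwann cell markers summed to 26.8 to 84 CPM and 4.80 to 26 CPM. The part of such RNA in the results below was not tested.

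Clusters were made from these same counts, so a comparison of cluster 8 with other clusters describes the clustering and is no independent evidence that a gene differs. A gene is called when its Benjamini-Hochberg adjusted p in the quasi-likelihood model of edgeR, fitted with strain label as a block, is under 0.05. Against the other endomysial cells 30 of 15259 genes were called, or 0.197%, of which 19 were higher in cluster 8 (0.125%) and 11 lower (0.0721%), and 8.99% had an unadjusted p under 0.05. Against all other fibroblasts 0.888% of 15648 genes were called, 70 of them higher (0.447%) and 69 lower (0.441%), and 10.6% had an unadjusted p under 0.05. The first count was 0 without Acta2GFP, 0 without PdgfrbGFP, 1 without the pool and 54 without C57BL6, with 9.27%, 6.46%, 5.68% and 8.41% of genes at an unadjusted p under 0.05. DESeq2 called 828 genes, 47.9% of them higher, beside 63.3% of the 30. Without regard to the call, the 4 values of cluster 8 lay wholly above those of the other endomysial cells for 2.14% of genes and wholly below for 4.02%, and against all other fibroblasts for 2.19% and 5.45%.

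All 7 markers were higher in cluster 8 than in the other endomysial cells in each of the 4 strain labels, a pattern that 7.2% of all tested genes showed, and 6 of the 7, all but Cpz, were higher in each strain label than in all other fibroblasts, as 6.96% of genes were. The markers were chosen with earlier results of these data known, so their direction is no independent evidence. Fmo2 and C4b were called against the other endomysial cells, and C2, Fmo2, C4b and C7 against all other fibroblasts. The values are given next by role.

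C2, the protease that forms the classical convertase with C4b, stood at 890 CPM in Acta2GFP, 330.7 in C57BL6, 876 in the pool and 862 in PdgfrbGFP cells of cluster 8, against 15.7, 99.8, 38.5 and 45.9 CPM in the other endomysial cells of the same strain labels. The ranges of the groups did not overlap, and the lowest value of cluster 8 was that of C57BL6. The mean difference within strain labels was 4.03 ± 1.68 on the log2(CPM + 1) scale (SD, n = 4), and the fitted log2 fold change was 4.18. C4b, the larger component of that convertase, stood at 107.3, 681, 755 and 430.6 CPM in cluster 8, in the same order of strain labels, against 23.3, 189.2, 71.7 and 60 CPM. Here the ranges overlapped, because cluster 8 of Acta2GFP lay below the other endomysial cells of C57BL6, yet the difference within strain labels was the least variable of the 7, at 2.55 ± 0.69 (SD, n = 4).

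C7, a subunit of the membrane attack pore, stood at 1091, 762, 1443 and 1334 CPM in cluster 8 and at 63.6, 331.1, 169.2 and 210.3 CPM in the other endomysial cells, with no overlap. Its mean difference was 2.76 ± 1.20 (SD, n = 4).

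Gdf10, a secreted ligand of the BMP and TGF-beta family also called BMP3B, stood at 1112, 1157, 2499 and 2315 CPM in cluster 8 against 20.3, 349.9, 346.6 and 211.8 CPM. Mmp3, a matrix protease also called stromelysin-1, stood at 193.1, 204.7, 163.6 and 286.7 CPM against 3.43, 57.5, 21.8 and 31.3 CPM. Neither gene's ranges overlapped, and the mean differences were 3.43 ± 1.68 for Gdf10 and 3.32 ± 1.53 for Mmp3 (SD, n = 4). For both genes the other endomysial cells were lowest in Acta2GFP.

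Fmo2, a flavin monooxygenase that oxidises nitrogen and sulphur compounds, stood at 980, 293.3, 954 and 655 CPM in cluster 8 against 55.7, 78.5, 88.7 and 53.7 CPM. Its mean difference was 3.25 ± 0.95 (SD, n = 4). Cpz, a carboxypeptidase with a Wnt-binding domain, stood at 169.6 CPM in Acta2GFP, 15.2 in C57BL6 and 205.1 in the pool, with PdgfrbGFP between C57BL6 and Acta2GFP, against 0.686, 3.40, 7.94 and 7.24 CPM. Its mean difference was 4.27 ± 1.96 (SD, n = 4), the widest spread of the 7 markers.

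**Figure D1:**
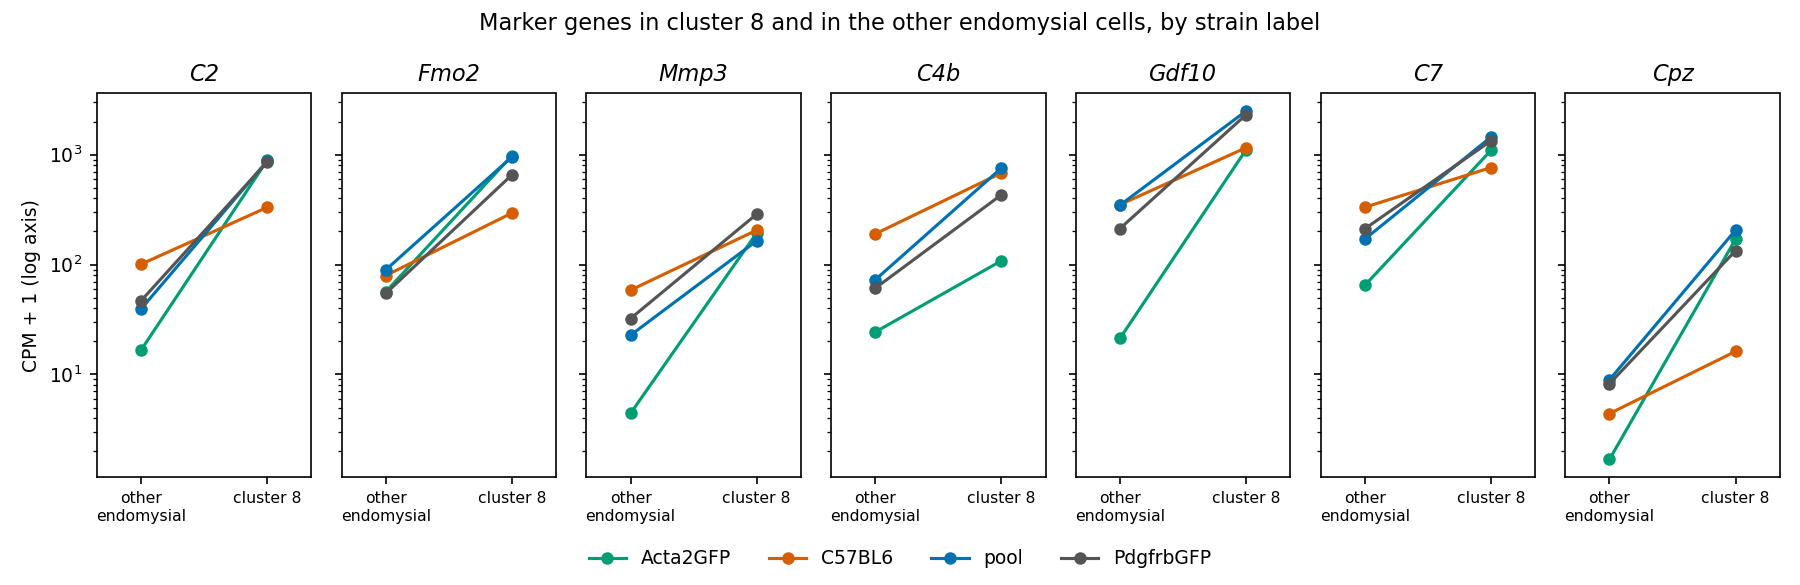
Summed level of the 7 markers (y axis, CPM + 1 on a log axis) in the other endomysial cells and in cluster 8 (x axis), with 1 line per strain label. Every line goes up towards cluster 8, and the C57BL6 line is the flattest in each panel, from a difference of 1.20 for C7 to 1.89 for Fmo2 on the log2 scale.

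The difference was smallest in C57BL6 for 7 of the 7 markers. Without C57BL6, C2 and C7 were called as well against the other endomysial cells, while Mmp3, Gdf10 and Cpz were not. All C57BL6 cells of cluster 8 came from 1 plate, and whether strain, sort or plate goes with the smaller difference cannot be told apart.

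Cluster 8 cells had a median of 4 of the 7 markers detected, with a range of 0 to 7. In 81.4% of them 3 or more were detected, and in 9 cells none was. Gdf10 was detected in 88.5% of cluster 8 cells (95% exact binomial interval 84 to 92.2, which like all intervals here covers counting error only), C7 in 82.6% (77.4 to 87.1), C2 in 63.2% (57 to 69.2) and Fmo2 in 60.5% (54.2 to 66.5). C4b was detected in 39.5% (33.5 to 45.8), Mmp3 in 23.3% (18.3 to 29) and Cpz in 13.4% (9.49 to 18.3). These markers therefore fall into a group found in most cells and a group found in a minority of them.

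None of the 4 frequent markers was limited to cluster 8. Gdf10 was also detected in 66.7% of cluster 6 cells, C7 in 93.5% and C2 in 35.5% of cluster 5 cells, and Fmo2 in 22.9% of cluster 6 cells. Of the less frequent markers, C4b was detected in 51.6% of cluster 5 cells. The combination was less shared: 3 or more markers were detected in 48.4% of the 31 cluster 5 cells, 13% of cluster 6, 3.73% of cluster 1, 2.95% of cluster 3 and in 0 cells of clusters 2, 9, 10 and 7.

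**Figure D2:**
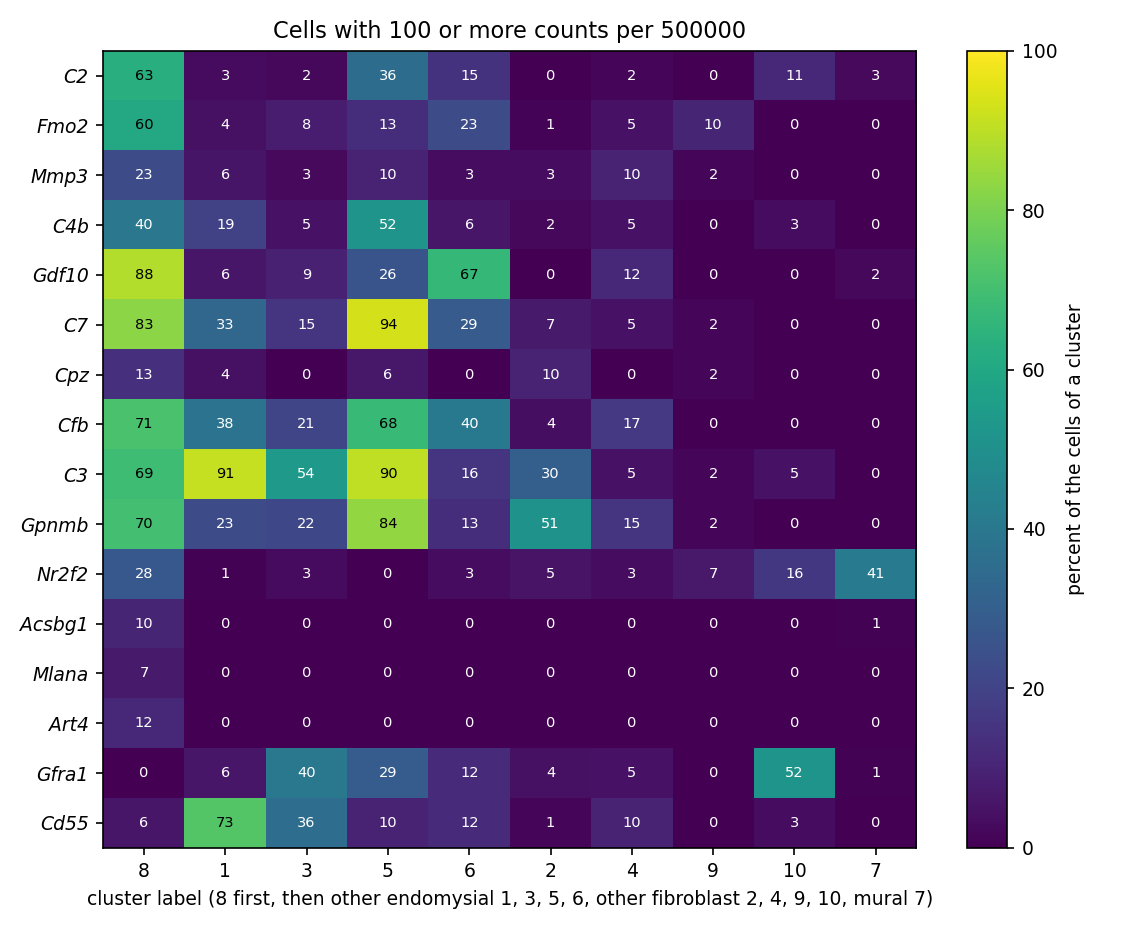
Share of cells, in percent (number and colour), with 100 or more counts per 500000 for 16 genes (rows) in each cluster label (columns, cluster 8 first). Cluster 8 shares C7, C4b, Cfb, C3 and Gpnmb with cluster 5 and Gdf10 with cluster 6. C3 is also detected in 91.3% of cluster 1 and 53.9% of cluster 3 cells, and Gpnmb in 51.3% of cluster 2. Acsbg1, Mlana and Art4 are near 0 elsewhere, and Gfra1 is at 0 in cluster 8.

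The RefSeq promoter table (GRCm38.p6, 250 bases before to 50 after a start) held 5 of the 7 markers; C2 and C4b had no entry. Each promoter was searched on both strands for TGANTCA, the AP-1 motif, AGGTCA, the element that nuclear receptors such as NR2F2 bind, and TATAAA. Of 32817 promoters, 7.81% held the first, 16.3% the second and 13.6% the third. Of the markers, Mmp3 held TGANTCA and TATAAA, and C7 held AGGTCA and the reverse complement of TATAAA; the second of the Fmo2 starts held AGGTCA, and Gdf10 and Cpz held none. The Mmp3 and C7 promoters, chr9:7445572-7445871 on the + strand and chr15:5063724-5064023 on the - strand, are shown because they are those with 2 matches, in capitals.
Mmp3: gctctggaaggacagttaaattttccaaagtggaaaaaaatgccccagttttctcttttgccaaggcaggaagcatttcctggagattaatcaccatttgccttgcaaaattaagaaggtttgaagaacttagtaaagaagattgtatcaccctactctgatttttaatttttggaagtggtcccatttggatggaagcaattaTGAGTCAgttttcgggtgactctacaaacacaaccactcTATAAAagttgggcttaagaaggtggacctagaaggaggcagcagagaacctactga
C7: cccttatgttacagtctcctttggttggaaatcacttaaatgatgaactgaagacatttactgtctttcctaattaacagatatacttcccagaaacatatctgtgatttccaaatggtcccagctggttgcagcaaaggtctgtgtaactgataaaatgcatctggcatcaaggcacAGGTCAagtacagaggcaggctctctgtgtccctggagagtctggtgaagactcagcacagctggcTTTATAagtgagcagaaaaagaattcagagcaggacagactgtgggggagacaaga
A match is a description of the letters, not evidence that a factor binds there.

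The complement genes were followed through the whole cascade, in lists of 16, 7, 7 and 20 genes for initiation, the convertases, the terminal pathway and regulators with receptors. Of the initiation genes 8 were tested, and 0 were called against the other endomysial cells. C1s1, a C1 protease, was high in both groups, at 821 to 1296 CPM in cluster 8 and 797 to 1147 CPM in the other endomysial cells. C1ra, the protease that activates it, stood at 400.6 to 692 CPM and 327.9 to 428.3 CPM, and was higher in cluster 8 in 4 of 4 strain labels. Against all other fibroblasts C1ra and C1s1 were both called, with log2 fold changes of 0.99 and 0.74. C1qa, C1qb and C1qc, the recognition subunits made mainly by macrophages, stood at or under 0.384 CPM in every strain label of cluster 8. Masp1, Masp2 and Colec11 stayed at or under 48.7 CPM, and Mbl1, Mbl2, Fcnb and Colec10 had no count in cluster 8.

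Of the 7 convertase genes 6 were tested and 1, C4b, was called against the other endomysial cells. The list median log2 fold change was 1.41, beside -0.10 over all genes tested. The list holds the markers C2 and C4b, which were chosen with results of these data known, so its median is no independent evidence. The other tested members had log2 fold changes of 1.78 (Cfb), 1.04 (C4a), 0.58 (C3) and 0.50 (Cfp). Against all other fibroblasts 4 were called, namely C2, C3, C4b and Cfb. Cfb, the alternative pathway counterpart of C2, stood at 644, 703, 913 and 842 CPM in cluster 8 and at 134.9, 351.8, 202.6 and 305.2 CPM in the other endomysial cells, with no overlap and a mean difference of 1.72 ± 0.60 (SD, n = 4). C3, on which all pathways converge, stood at 524, 2662, 1744 and 1747 CPM against 425.6, 1400, 1217 and 1355 CPM. Cluster 8 was thus higher in each strain label while the ranges overlapped. C3 was detected in 68.8% of cluster 8 cells, 91.3% of cluster 1, 90.3% of cluster 5 and 53.9% of cluster 3. Cfd, the protease that activates factor B, had no count in cluster 8.

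Beyond C7 the terminal pathway was nearly silent. C6, another pore subunit, stood at 0.617 to 4.91 CPM in cluster 8, C8g at 0 to 2.55 CPM, and C8a, C8b and C9 had no count. Hc, which encodes C5, was not analysed here.

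Of the 20 regulators and receptors 10 were tested and 1, Cd55, was called, lower in cluster 8. Cd55, the surface protein that breaks up C3 convertases, stood at 115.7, 36.2, 58.8 and 36.8 CPM in cluster 8 and at 471, 239.8, 256.1 and 310.5 CPM in the other endomysial cells, with a mean difference of -2.46 ± 0.49 (SD, n = 4). Serping1, the C1 inhibitor, was high everywhere, at 3572 to 5063 CPM in cluster 8 and 3366 to 4095 CPM in the other endomysial cells. Per kilobase of exon it was also the highest complement gene of cluster 8, at 1886 CPM per kb, followed by C7 at 432.5, C1s1 at 350.4, C3 at 324.6, Cfb at 274.55 and C2 at 191.02 CPM per kb. Vtn, which blocks pore insertion, stood at 24.1 to 121.5 CPM against 130.3 to 273.7 CPM. Clu, Cr1l and Colec12 overlapped between the groups and their direction differed between strain labels, and the remaining members stood at or under 3.01 CPM, the level of Cd46 in PdgfrbGFP, except Cd59a at 1.45 to 14.8 CPM. C4bp and Vsig4 had no count in cluster 8.

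**Figure D3:**
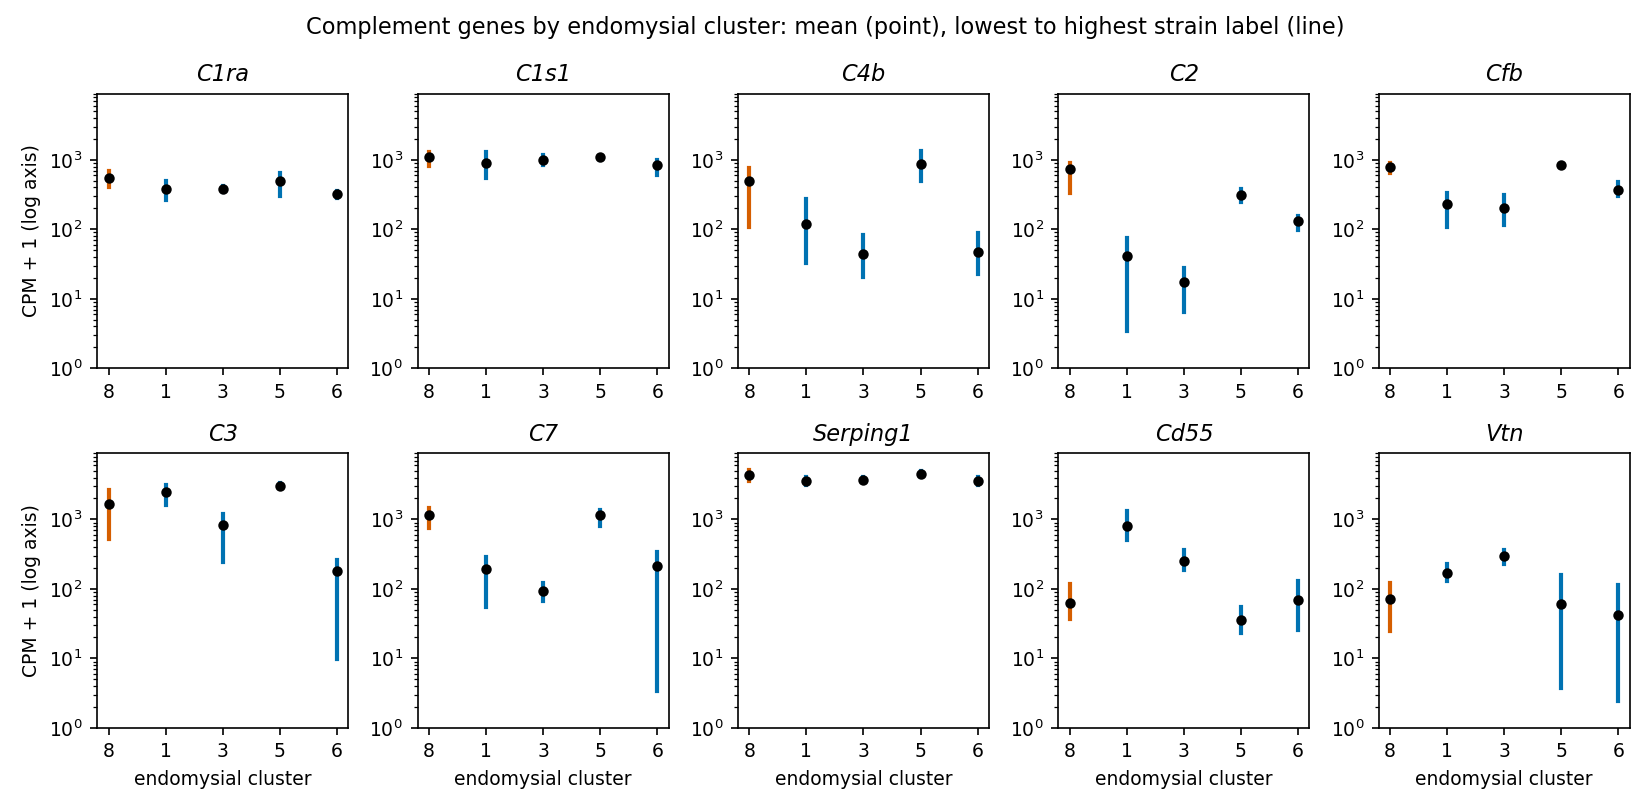
Level of 10 complement genes (y axis, CPM + 1 on a log axis) in the 5 endomysial clusters (x axis, cluster 8 in orange), with the mean over strain labels as a point and the lowest to highest strain label as a line. Cluster 5 matches or exceeds cluster 8 for C4b, Cfb, C3 and C7, cluster 8 is highest for C2, and C1s1 and Serping1 are level across clusters.

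C2, C4b and Cfb lie together on chromosome 17, with C4b at 34728380 to 34743882, Cfb at 34856374 to 34862518 and C2 at 34862604 to 34898265, all on the minus strand (GRCm38, GENCODE). Their counts carry limits. Of the 50-base stretches of C4b transcripts, 34.6% also occur in another gene, mainly C4a, and C4a itself stood at 0.308 to 2.31 CPM in cluster 8. The predicted gene Gm20547 overlaps 46.9% of the exonic bases of C2 and 79.5% of those of Cfb, and was itself at 895 to 1470 CPM in cluster 8, so the split of reads between these 3 is uncertain.

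Beside the complement genes, 12 genes were named as the largest called increases over the other endomysial cells, and Fmo2 and C4b were among them. Acsbg1, a very long chain acyl-CoA synthetase, stood at 331.2, 17.7, 71.3 and 88.1 CPM in cluster 8 and at 0.0170 to 0.858 CPM in the other endomysial cells. Mlana, a melanosome protein of pigment cells, stood at 89.8, 20.2, 65.6 and 38.9 CPM against at most 0.601 CPM. Art4, an ADP-ribosyltransferase that carries a blood group antigen, stood at 169.02, 7.86, 12.6 and 128.2 CPM against at most 1.63 CPM.

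These 3 genes came from a minority of cells. Acsbg1 was detected in 10.3% of cluster 8 cells, Mlana in 7.11% and Art4 in 11.5%, and all 3 were at 0 in clusters 1, 3, 5 and 6; by the limit of 3 cells in the total, a count of 0 allows a share of up to 0.682% in the 440 cells of cluster 3 and of up to 9.68% in the 31 cells of cluster 5.

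Nr2f2, an orphan nuclear receptor known from veins and mesenchyme, stood at 255.7, 121.02, 180.5 and 173.4 CPM in cluster 8 against 8.67, 15, 13.8 and 15.7 CPM, and Epha3, a receptor for membrane-bound ephrins, at 129.8, 36.4, 102.4 and 128.8 CPM against 9.09, 3.68, 8.97 and 21.2 CPM. Cyp1b1, a cytochrome P450 that metabolises oestrogens and retinoids, stood at 102.9 to 220.7 CPM against 13.9 to 41.9 CPM, and Prickle1, of the planar cell polarity pathway, at 121.6 to 246.5 CPM against 23.3 to 50.5 CPM. None of these ranges overlapped.

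Fbln1, Gpnmb and Apoe were also among the 12. Fbln1, the matrix glycoprotein fibulin-1, stood at 1447, 1456, 1595 and 2231 CPM against 308.4, 513, 413.6 and 513 CPM. Its mean difference was 1.95 ± 0.32 (SD, n = 4). Fbln1 was detected in 92.1% of cluster 8, but also in 93.5% of cluster 5 and 91.1% of cluster 2 cells. It was not called against all other fibroblasts. Apoe, a lipid carrier, stood at 530 to 903 CPM against 104.7 to 235.1 CPM. Apoe was detected in 53% of cluster 8 cells, and in 57.6% of cluster 2, 50.8% of cluster 9 and 48.4% of cluster 10. Gpnmb, a membrane glycoprotein, stood at 470 to 807 CPM against 109.8 to 194.2 CPM, and like C4b its mean level was higher in cluster 5, at 821 CPM, than in cluster 8, at 688 CPM.

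**Figure D4:**
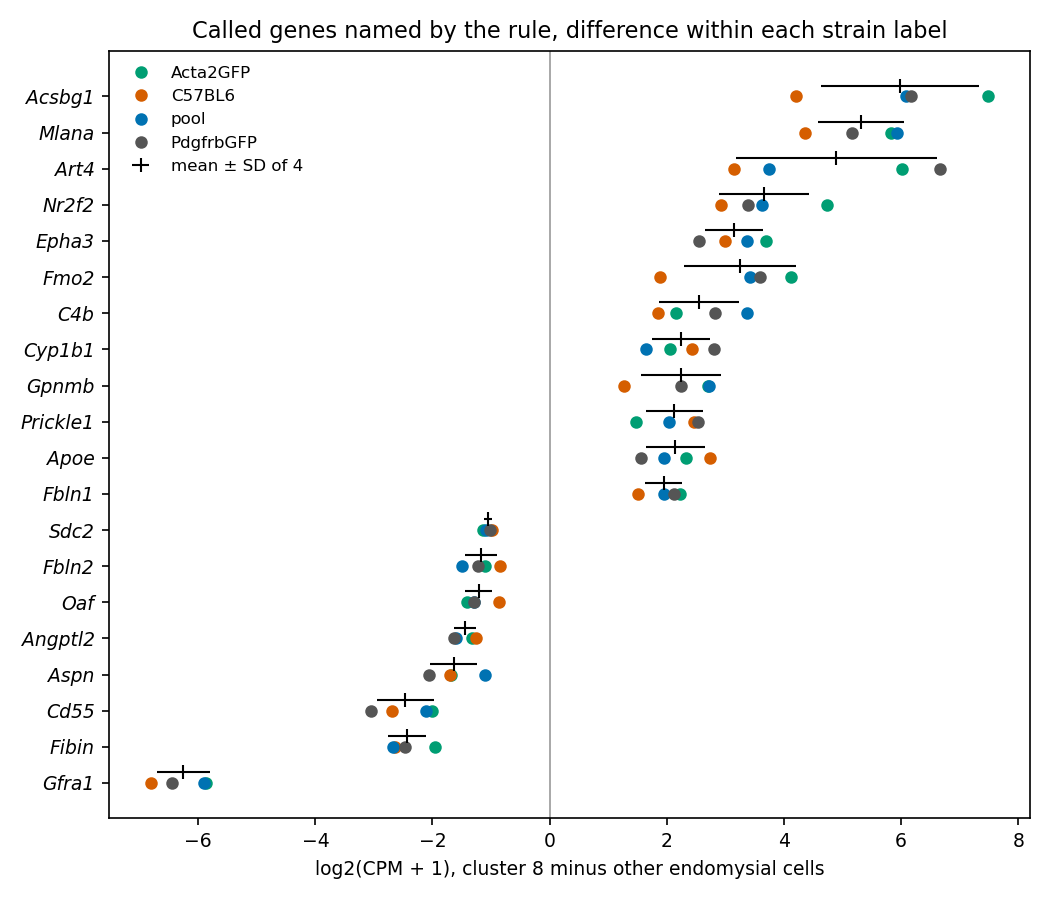
Difference between cluster 8 and the other endomysial cells within each strain label (x axis, log2(CPM + 1)) for the 20 called genes named by the rule (rows), with 1 dot per strain label and the mean ± SD of the 4 as a bar. All 4 dots of a gene lie on the same side of 0, and Sdc2 varies least, with an SD of 0.07, while Art4 varies most, with an SD of 1.71.

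Secreted factors and cytokine genes were next. Of 30 chemokine and cytokine genes 26 were tested, and 1, Cxcl12, the chemokine that retains CXCR4-bearing cells, was called; it stood at 1083, 960, 1090 and 1202 CPM in cluster 8 against 690, 528, 589 and 619 CPM, with a mean difference of 0.84 ± 0.13 (SD, n = 4). Kitl, the stem cell factor, stood at 121.8, 41.5, 175.4 and 165.2 CPM against 3.09, 11.9, 6.87 and 10.0 CPM and was called against all other fibroblasts only. Ccl19, a lymphocyte chemokine, stood at 31.2 to 54.4 CPM against 4.63 to 8.70 CPM and was likewise called against all other fibroblasts. Of 30 genes of cytokine receptors and the acute phase 25 were tested and 2 were called: Il6st, the shared receptor chain gp130, at 580 to 1022 CPM against 293.7 to 418.6 CPM, and Cp, the copper oxidase ceruloplasmin, at 144.3 to 373.6 CPM against 56 to 162.3 CPM. Of 35 genes of antigen presentation and the interferon response 33 were tested and 0 were called, with a median log2 fold change of 0.05.

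Gdf10 was an exception in the list of BMP family ligands. That list of 22 genes also holds Bmp1, a protease, and Inha, an inhibin subunit, so not every member is a BMP or GDF ligand. Of the 22 genes 15 were tested and 0 were called. Gdf10 was the 1 gene higher in 4 of 4 strain labels, and 9 were lower in 4 of 4, beside 13.6% of all tested genes. Bmp4, a ligand of mesenchymal patterning, stood at 117.5, 57.4, 112.7 and 179.9 CPM in cluster 8 against 536 CPM in Acta2GFP, 311.1 in the pool and 334.4 in PdgfrbGFP, with C57BL6 below these and above every value of cluster 8. Of 17 antagonists 13 were tested and 0 were called. Those higher in 4 of 4 included Chrdl1, chordin-like 1, at 332.99 to 856 CPM against 36 to 86.6 CPM. They also included Fstl3, which binds activin, at 19.4 to 290.8 CPM against 3.51 to 15.8 CPM. Chrdl1 was detected in 44.7% of cluster 8 cells, but also in 51.6% of cluster 5 and 50.9% of cluster 2.

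Among 23 metalloproteinases and TIMPs 15 were tested and 0 were called. Mmp3, itself a marker of cluster 8, and Mmp23 were the 2 whose ranges did not overlap. Over all tested genes cluster 8 lay wholly above for 2.14% and wholly below for 4.02%. Mmp23, a membrane-anchored metalloproteinase, stood at 291.2 to 403.4 CPM against 62.9 to 201.7 CPM. It was not particular to cluster 8. Mmp23 was detected in 53.8% of cluster 8, 57.8% of cluster 1 and 71% of cluster 5 cells, against 15% of cluster 3 and 17.3% of cluster 6. Among 16 carboxypeptidases 8 were tested and 0 were called; beside Cpz, Cpxm1, a secreted member of the family, stood at 520 to 693 CPM against 67.7 to 297.8 CPM. Of 7 flavin monooxygenases 3 were tested and Fmo2 was the 1 called.

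The 8 largest called decreases of the rule included Cd55, described above. Gfra1, the GDNF co-receptor, was the largest of them, at 2.16, 0.598, 2.39 and 0.975 CPM in cluster 8 against 182.4, 177.9, 202.6 and 170.5 CPM in the other endomysial cells, with a mean difference of -6.25 ± 0.45 (SD, n = 4). It was detected in 0 cells of cluster 8, which allows a share of up to 1.19% by the limit of 3 cells in the total and of up to 1.45% by the exact binomial interval, and in 40.2% of cluster 3 cells, while 70 cluster 8 cells held any Gfra1 count. Ret, which encodes the signalling partner of GFRA1, was detected in 2.37% of cluster 8 and 32.3% of cluster 3 cells. Adamts16, a metalloproteinase gene and marker of cluster 1 that was called but averaged under 20 CPM, stood at 0 to 0.223 CPM against 6.01 to 33.9 CPM.

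Fibin, a secreted factor, stood at 39.5, 18.9, 16.6 and 19.6 CPM against 123.8 in C57BL6, 110.4 in the pool, 113.1 in PdgfrbGFP and a higher level in Acta2GFP. Aspn, the leucine-rich proteoglycan asporin, stood at 123.1 to 330.6 CPM against 512 to 1067 CPM, and Angptl2, an angiopoietin-like secreted protein, at 186.6 to 307.2 CPM against 446 to 768 CPM. Fbln2 stood at 770 to 1207 CPM against 2165 to 2451 CPM, the reverse of the other fibulin, Fbln1. Oaf, a secreted protein, and Sdc2, the heparan sulphate carrier syndecan-2, differed by -1.21 ± 0.24 and -1.06 ± 0.07 (SD, n = 4). For some of these genes cluster 6 was near cluster 8. Detection in clusters 8 and 6 was 30.4% and 25.5% for Angptl2, 41.9% and 45.5% for Oaf, and 62.5% and 60.2% for Sdc2. The same values were 0% and 12.1% for Gfra1, 3.95% and 18.2% for Fibin, 26.1% and 61.5% for Aspn, and 80.6% and 86.1% for Fbln2. Cd55 was detected in 5.93% of cluster 8, 12.1% of cluster 6 and 9.68% of cluster 5 cells, against 73.3% of cluster 1.

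Of 15 genes of laminins, nidogens and linked basement membrane proteins 12 were tested and 0 were called, and 8 were lower in cluster 8 in 4 of 4 strain labels, as 13.6% of all tested genes were, with a median log2 fold change of -0.92. Lamb1, the laminin beta 1 chain, stood at 57.4, 275.3, 93.2 and 109.3 CPM in cluster 8 against 886, 454, 738 and 556 CPM, and Hspg2, which encodes perlecan, at 203.6 to 461 CPM against 613 to 1138 CPM. Of 11 fibrillar collagen genes 9 were tested and 0 were called; Col1a1 stood at 4234 to 6764 CPM against 2859 to 3762 CPM.

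Against all other fibroblasts, Acsbg1, Mlana, Art4, Vill, C2 and Kitl were the 6 largest called increases by the same rule. Vill, a villin-like actin-binding protein, stood at 30.8, 11.7, 43.6 and 71.8 CPM in cluster 8 and at 0.0287 to 3.08 CPM in the other fibroblasts. The 6 largest decreases were Uts2r, Insc, Fam167a, Col11a2, Col11a1 and Gfra1, of which Col11a1, a collagen of cartilage and tendon, stood at 0.247 to 2.16 CPM in cluster 8 and at 45.9 to 226.7 CPM in the other fibroblasts. All 8 perimysial markers were called lower in this comparison, with a median log2 fold change of -5.56 against the sum of all other fibroblasts, most of which are not perimysial; 0 of the 8 were called against the other endomysial cells.

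Over the 15648 genes, the summed profile of cluster 8 was most like that of cluster 3 in each of the 4 strain labels, with Pearson r of log2(CPM + 1) from 0.79 in Acta2GFP to 0.91 in PdgfrbGFP. Cluster 6 came second where it had 3 or more cells, with r of 0.84 in C57BL6, 0.87 in the pool and 0.90 in PdgfrbGFP, and cluster 5 had r of 0.76, 0.68 and 0.82 from 12, 3 and 16 cells. These are correlations across genes of sums that share plates and differ in cell number, and the order is a description.

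C4b varied between the cells of cluster 8 in another way than Gdf10, C7 and Fmo2. Across the cells of cluster 8, with plate means removed, Pearson r was 0.52 between Gdf10 and C7 and 0.43 between Fmo2 and C7. C4b had r of -0.29 with Fmo2, -0.28 with Nr2f2, -0.28 with Epha3 and 0.26 with Cxcl12. Mmp3 was also little linked to these markers, with r of 0.009 with Gdf10, 0.002 with C7 and 0.07 with Fmo2. Fmo2 was detected in 44% of the 100 cells with C4b and in 71.2% of the cells without it. The same order held in C57BL6 at 25% and 33.3%, in the pool at 71.4% and 87.5% and in PdgfrbGFP at 46.8% and 75.2%, and not in Acta2GFP, where 3 of 3 cells with C4b had Fmo2. For C2 the order differed between strain labels. C2 was detected in 61.1% of cells with C4b and 20.8% without it in C57BL6, and in 53.2% and 71.3% in PdgfrbGFP. The values share each cell's depth, and weak correlations of sparse counts carry little weight.

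Over 40 sums per strain label and cluster, the genes whose level was most like that of C4b were Fgf7, a growth factor for epithelium, with Pearson r of 0.81, then Serpina3c, a serine protease inhibitor (0.81), Gm20547 (0.79), Ces2g, a carboxylesterase (0.79), and C1ra (0.79). Fgf7 stood at 208.8 to 329.1 CPM in cluster 8 and 329.5 to 472.5 CPM in cluster 5.

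The muscle label did not enter the clustering, and it was given for the pool and for part of the PdgfrbGFP cells. Clusters were made from counts that may differ with muscle and plate, so membership of cluster 8 may itself depend on muscle. In the pool, cluster 8 was 12% of the endomysial cells of soleus (13 cells, with 6.57 to 19.7 as the 95% exact binomial interval) and 8.76% of those of gastrocnemius (17 cells, 5.19 to 13.7). In PdgfrbGFP it was 28.9% in soleus (26 of 90 cells, 19.8 to 39.4) and 42% in gastrocnemius (47 cells, 32.7 to 51.7). The directions were opposite, the intervals overlapped within each strain label, and the difference was not tested across the 2 strain labels. As a share of all fibroblasts the pool gave 7.39% and 7.56%.

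Within cluster 8, edgeR called 0 of 12459 genes between soleus and gastrocnemius, or 0%, with 489 genes (3.92%) at an unadjusted p under 0.05, and DESeq2 called 0.859%, 40 of them higher and 67 lower in soleus. With 4 sums the edgeR fit has 1 residual degree of freedom, and in the pool muscle and plate cannot be told apart. Mmp3 was among the genes with the smallest p: it stood at 82.6 CPM in soleus and 267.01 CPM in gastrocnemius of the pool and at 261.4 and 654 CPM in PdgfrbGFP. Its log2 fold change of -1.58 had an adjusted p of 0.9997 in edgeR and 0.00668 in DESeq2, and it was lower in soleus in 2 of 2 strain labels. Of the other markers, C2, Fmo2, Gdf10 and Cpz were also lower in soleus in both strain labels, as 23.9% of all genes were (27.4% were higher in both), C4b was higher in both by 0.15 and 0.08 on the log2 scale, and C7 differed in direction; each had an adjusted p of 0.9997 in edgeR, and none was called by DESeq2.

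In PdgfrbGFP, whose soleus and gastrocnemius cells shared a plate, C2 stood at 553 and 1342 CPM, Fmo2 at 359.2 and 933 CPM, and Gdf10 at 1548 and 3382 CPM. In the pool the same genes stood at 838 and 924 CPM, 894 and 1031 CPM, and 2138 and 2959 CPM. Mmp3 was lower in soleus in both strain labels of the other endomysial cells as well, at 0.138 against 39.4 CPM in the pool and 6.22 against 30.05 CPM in PdgfrbGFP, so its direction was shared with them, and C7 was likewise lower in both. There C2, Gdf10, Fmo2, C4b and Cpz were higher in soleus in the pool and lower in PdgfrbGFP. C2 stood at 46.1 against 32.4 CPM in the pool and 3.65 against 81.4 CPM in PdgfrbGFP, and Gdf10 at 391.1 against 310.3 CPM and 237.5 against 441 CPM.

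The remaining genes with the smallest p were Olfml2a, a matrix protein, Prg4, the lubricant lubricin, and Cox10, an enzyme of haem synthesis, all higher in soleus, and Col5a3, a collagen chain, and Nr4a1, an immediate early nuclear receptor, both lower. Prg4 stood at 646 and 162.6 CPM in soleus and gastrocnemius of the pool and at 597 and 89.2 CPM in PdgfrbGFP; Olfml2a stood at 127.1 and 3.38 CPM and at 177.4 and 9.19 CPM. Cox10 stood at 37.9 and 0.375 CPM and at 167.2 and 0.270 CPM, Col5a3 at 58.2 and 293.6 CPM and at 42.6 and 231.3 CPM, and Nr4a1 at 175.2 and 409.7 CPM and at 362.01 and 1502 CPM. The Olfml2a and Cox10 values rest on few cells. Olfml2a was detected in 7.91% and Cox10 in 5.14% of cluster 8 cells, and each in 3.33% of those from the pool. The 10 muscle fibre markers summed to 134.2 and 246.01 CPM in the pool and 66.2 and 149.9 CPM in PdgfrbGFP, and the 24 immediate early genes to 8527 and 10688 CPM and 9990 and 16158 CPM, both lower in soleus. The 8 perimysial markers went the other way, at 247.31 CPM in soleus and 34.7 CPM in gastrocnemius of the pool and at 408.02 and 99.9 CPM in PdgfrbGFP, and Prg4 itself was detected in 93.7% of cells of perimysial cluster 2 and 100% of cluster 9 against 25.7% of cluster 8. The 5 genes listed as muscle stem cell markers also summed higher in soleus. They stood at 365.75 and 139.51 CPM in the pool and 121.24 and 45.3 CPM in PdgfrbGFP. Of these genes Musk was detected in 23.7% of cluster 8 cells, Pax7, Myf5 and Chodl in 0.395% each and Myod1 in 0%. Musk was also detected in 58.3% of cells of fibroblast cluster 4, so the sum says little about muscle stem cells. The part of these lists in the differences between muscles was not tested.

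**Figure D5:**
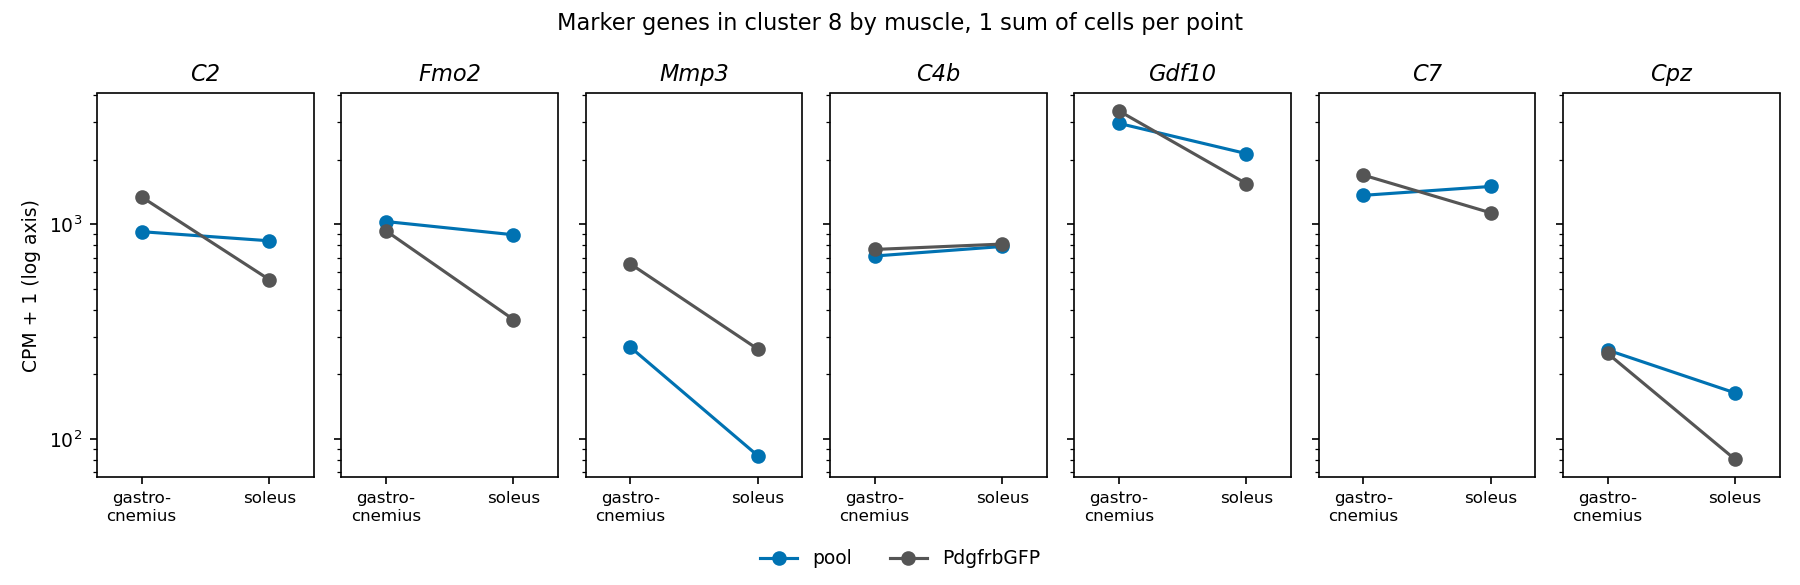
Level of the 7 markers in cluster 8 (y axis, CPM + 1 on a log axis) in gastrocnemius and soleus (x axis), with 1 line for the pool and 1 for PdgfrbGFP and each point a sum of 13 to 47 cells. Mmp3, C2, Fmo2, Gdf10 and Cpz go down towards soleus on both lines, C4b is level, and C7 differs between the lines.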

How the data were processed

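Single cells from mouse skeletal muscle were sorted into plates and sequenced by Smart-seq2 with single reads of 50 bases. The deposited table holds raw read counts per gene and cell, made by the authors with TopHat2 and Bowtie on GRCm38 (mm10) and featureCounts, after removal of cells with few counts or genes and of presumed doublets; the annotation release and use of strand are not given in the sources used here. The protocol label names heart as the dissociated tissue, whereas the tissue labels name skeletal muscle. Of 1754 columns, 1753 matched a labelled cell and 1 was not used. The 92 spike-ins, 1.31% of counts, were left out. Of 46517 gene identifiers, 46005 were named by GENCODE.

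Groups came from the cluster, strain and muscle labels, and replicates are sums of counts per strain label with 3 or more cells. Sums were tested in edgeR 4.0.16 (quasi-likelihood, TMM scaling, filterByExpr, Benjamini-Hochberg, R 4.3.3) with the strain label as a block, and in DESeq2 1.42.0 as an alternative; the fits were tested on simulated data. CPM were computed from unscaled totals, and per-strain differences used log2(CPM + 1). The strain block comes from the shared plates and suspensions of a strain label. Cluster 8 holds 253 cells, 148 of them PdgfrbGFP. Cluster 8, its markers and the gene lists were chosen with earlier results of these data known. Named genes are the 7 markers; the 12 largest increases and 8 largest decreases among called genes averaging 20 CPM or more with 1 direction in every strain label; 6 and 6 against all other fibroblasts; up to 4 called members of each list and all complement genes, apart from results not reported here; the 3 smallest p in each direction between muscles; and the 5 genes most like C4b. Other genes with values were chosen from the lists after their values were seen. No 2 columns were identical.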

Additional observations from a re-analysis of the deposited data

Results flagged for a closer look

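Among 4 strain labels, 1 value can stand far from the other 3, and chance gives this in about 1 in 20 groups. Of 50 values looked at, the levels in cluster 8 and the differences for 25 named genes, 2 did so. The C2 level of cluster 8 in C57BL6 was 8.37 on the log2(CPM + 1) scale, below the other 3 strain labels, which stood at 862 to 890 CPM. The Cpz level of cluster 8 in C57BL6 was 4.02 on that scale, below the other 3, of which the pool was highest at 205.1 CPM.

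In soleus minus gastrocnemius, the share of cluster 8 among endomysial cells differed by 3.27 percentage points in the pool and by -13.1 percentage points in PdgfrbGFP. C7 in cluster 8 differed by 0.14 on the log2 scale in the pool and by -0.58 in PdgfrbGFP. Whether these effects differ between the strain labels was not tested.

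The 2 Cspg4dsRED cells of cluster 8 entered no comparison. Over both, C2 stood at 3453 CPM, Gdf10 at 3050 CPM, Fmo2 at 468 CPM and C7 at 68.9 CPM, against 137.3, 1099, 92.1 and 2.17 CPM in the 49 other endomysial cells of that strain label. Mmp3, C4b and Cpz had no count in either cell.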

How the results depend on the processing

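Against the other endomysial cells, the called share of genes, 0.197%, became 5.43% with DESeq2, 0.426% with cells weighted alike, 1.58% with clusters kept apart, 0.321% with no filter on low counts, 0.387% with no replicate block (strain label left out) and 2.72% with plate as the unit. Leaving out 1 strain label gave 0% to 0.354%. Against all other fibroblasts, 0.888% became 7.45% with DESeq2, 3.19% with clusters kept apart, 1.48% without the block and 3.73% with plate as the unit, and 0.152% to 0.509% with 1 strain label left out: 41 genes without Acta2GFP, 81 without C57BL6, 29 without the pool and 23 without PdgfrbGFP. With clusters kept apart 83.9% and 92.3% of the called genes of these comparisons were higher in cluster 8, beside 63.3% and 50.4%, and the median of all genes moved from -0.10 to 0.20 and from -0.14 to 0.18 on the log2 scale. Without the block C4b was not called against the other endomysial cells (edgeR adjusted p 0.157), and in the second comparison 31.2% of called genes were higher. Between muscles, 0% became 0.859% with DESeq2 and remained 0% with RLE scaling, no filter, no block or cells weighted alike. Leaving out a strain label there leaves no residual degree of freedom and was not run. The causes were not tested.

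Signs turned for uncalled genes. Against the other endomysial cells, Clu became -0.014 with cells weighted alike and -0.14 without the block, and with 1 strain label left out Clu ranged from -0.26 to 0.45, Colec12 from -0.024 to 0.51 and Cr1l from -0.50 to 0.018. Against all other fibroblasts, Cr1l became 0.083 with cells weighted alike and 0.17 with clusters kept apart, Clu -0.12 with cells weighted alike, -0.062 with no filter and -0.23 without the block, and Vtn 0.89 with clusters kept apart. With 1 strain label left out, Cr1l ranged from -0.31 to 0.26 and Clu from -0.39 to 0.29. C4b between muscles became -0.050 with cells weighted alike. The share difference in the pool became -0.169 percentage points of fibroblasts and -0.177 of all cells.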
